A study of Sus scrofa with 48 samples.

Results

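The antioxidant enzymes of adipose tissue were followed here in the perirenal adipose tissue (PRAT) of 48 pigs: the superoxide dismutases and catalase, the glutathione and thioredoxin systems, and the NRF2 axis that controls many of them. Members were the genes whose name on the array begins with GST, GPX, PRDX, TXN or SOD, leaving out TXNIP, together with CAT, GCLC, GCLM, GSR, GSS, NQO1, HMOX1, NFE2L1, NFE2L2, KEAP1 and MAFG. This gave 47 genes and 146 probes out of 60306 probes, and each gene was read by its brightest probe. The chosen probe was among the 38142 probes the authors kept for 42 of the 47 genes. GPX5, GSTA1, GSTA2, TXNDC8 and TXNDC11 were not kept.

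The pigs were Large White barrows of 2 lines selected in opposite directions on residual feed intake (RFI), the feed eaten beyond what growth and maintenance predict. Low RFI pigs, labelled RFIneg, are the more efficient line and high RFI pigs, labelled RFIpl, the less efficient line. Each line was given free access to either a diet high in fat and fiber (HF) or a starch-based diet low in both (LF), with 12 pigs in each of the 4 groups, and all pigs were labelled as 132 days old. As fat, fiber and starch changed together, none can be told apart from the others, and no line unselected for RFI was used here. The study also reported that HF pigs ate less, weighed less and had smaller fat depots. Intake, body weight and adiposity thus changed with diet and cannot be told apart from it here. Each pig had 1 array, so the spread between arrays holds the differences between pigs.

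Superoxide dismutases turn superoxide into hydrogen peroxide, which catalase, the glutathione peroxidases and the peroxiredoxins then remove. Peroxidases of these families are recharged by glutathione or thioredoxin, and both carriers are returned to their reduced form by reductases that consume NADPH. The transcription factor NRF2, encoded by NFE2L2, is held down by KEAP1 in unstressed cells and, when released, switches on NQO1, TXNRD1, GCLC, GCLM and other genes of this set. In fat cells, the same NADPH is also drawn on by fatty acid synthesis.

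The array reads each gene with probes of 60 bases, printed here 5′ to 3′ as the scanner files list them. The first 5 show the stretches by which the main diet and line differences could be read a second time: these probes are not the brightest of their genes, and their own values are given with the results. No chromosome position is given for them because the files name no genome build.
TXNRD1: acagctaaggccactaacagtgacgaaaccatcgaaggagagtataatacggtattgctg
NQO1: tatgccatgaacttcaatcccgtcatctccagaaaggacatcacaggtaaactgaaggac
PRDX3: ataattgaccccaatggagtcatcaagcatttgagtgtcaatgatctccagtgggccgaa
GPX4: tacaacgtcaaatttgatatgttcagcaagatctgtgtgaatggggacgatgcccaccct
GPX3: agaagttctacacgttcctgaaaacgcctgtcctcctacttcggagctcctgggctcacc

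The next 4 probes are shown because 2 pairs were laid down in opposite directions. Capitals mark the stretch in which one probe is the reverse complement of the other, 19 bases for GPX2 and 59 bases for TXN. In both pairs, the second probe listed is the brightest of its gene and carries the values below. By the study's methods the label was complementary RNA, which pairs with probes that run as the transcript does. The first GPX2 probe and the second TXN probe are filed at a position of their pig transcript, unlike the other of each pair. Which strand bound was not tested, but the second GPX2 probe may not read the gene's transcript, nor the first TXN probe. Opposite strands show only where 2 member probes overlap, so genes with 1 probe, such as GCLM and SOD3, were not checked for strand. The probes of GCLM and SOD3 were also filed without a position on a pig transcript.
GPX2, first probe: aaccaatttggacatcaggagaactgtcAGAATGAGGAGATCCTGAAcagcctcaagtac
GPX2, second probe: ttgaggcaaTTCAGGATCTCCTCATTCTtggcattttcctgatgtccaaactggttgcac
TXN, first probe: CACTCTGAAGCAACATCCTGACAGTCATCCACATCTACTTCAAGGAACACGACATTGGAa
TXN, second probe: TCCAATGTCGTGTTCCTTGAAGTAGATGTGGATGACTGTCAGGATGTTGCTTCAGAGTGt
All 4 were well above background on all 48 arrays. Among the 146 probes, 6 repeated the sequence of another probe of the same gene, in GPX4, GPX5, GSS, GSTT1, SOD2 and TXN, and are not separate readings. Probes of different members shared at most 13 bases in a row.

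Glutathione peroxidases, peroxiredoxins and thioredoxin-like genes held 12 of the 19 calls for diet, with 4 of 6 tested genes called lower in each. Of the 42 tested genes, 19 were called lower in HF than in LF pigs and 0 were called higher, where a call needs a raw p below 0.01, a fold above 1.1 and a Benjamini-Hochberg (BH) adjusted p below 0.08 in limma. Over all 38142 probes, 15.5% were called lower and 8.94% higher, 24.5% in all, and over 7132 gene names read by 1 probe each, 19.2% were called lower and 6.55% higher. Among the 6220 probes brighter than the median member, 28.8% were called lower and 5.34% higher. The difference, HF minus LF in log2 signal, had a median of -0.15 over the members and -0.02 over all probes, and 38 of the 42 members lay below 0. The differences were modest: the called genes ranged from 1.11-fold to 1.47-fold lower in HF pigs.

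The count depended on how arrays were put on a common scale. All 19 called genes stayed below 0 under the 6 scalings compared, while the number called lower was 12 after background correction with quantile normalization and 5 when arrays were centred on the spike-in controls. That last scaling shifted every probe of an array by the same amount and moved the median over all probes from -0.02 to 0.08. The median of the members relative to all probes, -0.13, therefore could not change. The shift was also smaller than the called difference nearest 0, -0.15, so no called gene could rise above 0 under it. The 5 genes called under every scaling were TXNRD1, GCLM, SOD3, GSTO1 and TXNL4B.

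Some markers of the cell types in the tissue were called for diet. Of the 47 tested, 12.8% were called lower and 14.9% higher, where 15.5% and 8.94% of all probes were. Among the probes brighter than the median member, these shares were 28.8% and 5.34%. Of 9 adipocyte markers 3 were called lower in HF pigs, CIDEC, LEP and GPD1, and the mean of the list ranged from 6.18 to 6.80 in HF pigs and from 6.29 to 6.91 in LF pigs. Of 9 macrophage markers 6 were called higher, with a list mean from 0.31 to 2.53 in HF pigs and from 0.09 to 2.21 in LF pigs. Of 6 endothelial markers 1 was called higher and of 4 erythrocyte markers 2 were called lower, while 0 of 7 fibroblast, 0 of 5 adrenal and 0 of 6 muscle markers were called. Of 8 kidney markers only AQP2 was kept, and it was called lower. The part of these markers in the differences below was not tested, and fewer cells of a type and less RNA per cell cannot be told apart in whole tissue.

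**Figure D1:**
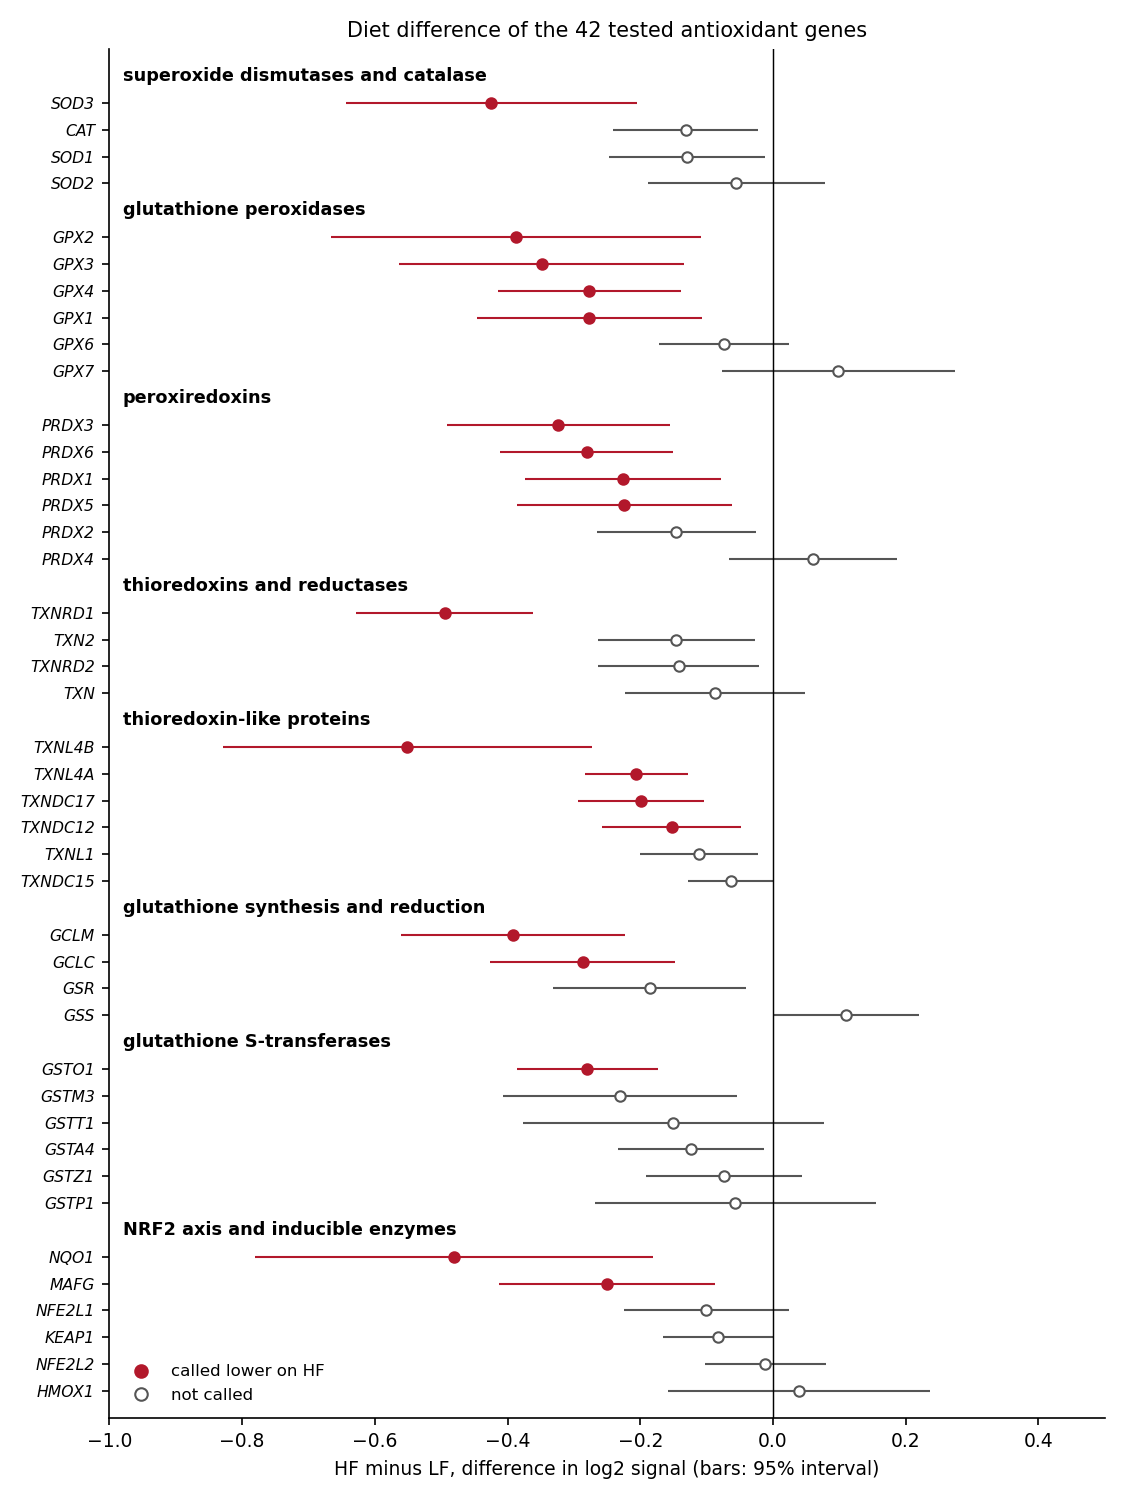
Difference in log2 signal between HF and LF pigs for the 42 tested genes, grouped by role, with 24 pigs a diet. Points are limma estimates and bars 95% intervals. Filled points are the 19 genes called lower, from -0.55 for TXNL4B to -0.15 for TXNDC12, and no gene was called higher.

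Among the 4 thioredoxins and reductases, 1 gene was called, and all 4 differences were below 0. TXNRD1 encodes the cytosolic thioredoxin reductase, a selenoprotein that uses NADPH to recharge thioredoxin. Its log2 signal ran from 3.41 over a median of 4.10 to 4.52 in HF pigs and from 4.13 over 4.56 to 5.12 in LF pigs. Each of the 24 HF pigs was under the LF mean and 14 were under every LF pig, although the ranges overlapped. The difference was -0.49 ± 0.07 (SE, n = 24 per diet, BH adjusted p = 5.67e-07). All 7 probes of TXNRD1 were called lower, from -0.49 to -0.24, and the probe printed above gave -0.48.

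Thioredoxin itself, TXN, had no call. Its signal ran from 4.95 over a median of 5.72 to 6.05 in HF pigs and from 5.34 over 5.71 to 6.22 in LF pigs, so the medians of the diets were nearly equal. The difference was -0.09 ± 0.07, with a 95% interval from -0.22 to 0.05, and its probe on the opposite strand gave -0.12. Within each pig, TXNRD1 minus TXN was -1.55 ± 0.35 (SD, n = 24) in HF pigs and -1.15 ± 0.22 in LF pigs, and was below the LF mean in 21 of 24 HF pigs. The mitochondrial partners TXN2 and TXNRD2 had differences of -0.15 and -0.14 and were not called. Their BH adjusted p, 0.055 and 0.0668, met the adjusted threshold but their raw p did not.

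In glutathione synthesis, both subunits of the first enzyme were called lower and the second enzyme was not called. GCLC and GCLM encode the catalytic and the modifier subunit of glutamate-cysteine ligase, the rate-limiting enzyme, and GSS encodes glutathione synthetase, which finishes the molecule. GCLM ran from -1.69 over a median of -1.25 to -0.44 in HF pigs and from -1.33 over -0.82 to -0.20 in LF pigs. GCLC ran from -2.57 over -2.09 to -1.59 in HF pigs and from -2.26 over -1.86 to -1.51 in LF pigs. In the HF group, GCLM was under the LF mean in 23 of 24 pigs and GCLC in 21 of 24, with overlapping ranges. The differences were -0.39 ± 0.08 for GCLM (BH adjusted p = 0.000428) and -0.29 ± 0.07 for GCLC (BH adjusted p = 0.00142).

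GSS ran from -0.22 over a median of 0.16 to 0.50 in HF pigs and from -0.40 over 0.10 to 0.41 in LF pigs. Of the HF pigs, 17 of 24 were above the LF mean. The difference of 0.11 ± 0.05 was not called (BH adjusted p = 0.119), but GSS was called higher after centring on the 75th percentile and on the spike-in controls, with differences of 0.15 and 0.22. Within each pig, GCLC minus GSS was -2.32 ± 0.30 (SD) in HF pigs and -1.92 ± 0.33 in LF pigs, and lay below the LF mean in 22 of 24 HF pigs. GCLM minus GCLC differed less, 0.96 ± 0.28 against 1.07 ± 0.35. GSR, the glutathione reductase, ran from -1.63 over -1.26 to -0.87 in HF pigs and from -1.58 over -1.15 to -0.47 in LF pigs. Its difference of -0.19 ± 0.07 had a BH adjusted p of 0.0455 and a raw p of 0.0135, which missed the raw threshold.

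Of the NRF2 axis, 1 of 4 regulators and 1 of 2 inducible enzymes were called lower. NFE2L2 ran from 0.78 over a median of 1.13 to 1.39 in HF pigs and from 0.82 over 1.1 to 1.54 in LF pigs. Of the HF pigs, 12 were under and 12 above the LF mean. The difference was -0.01 ± 0.05 with a 95% interval from -0.10 to 0.08. Its 3 probes lay between -0.02 and 0.02. KEAP1, which holds NRF2 down, ran from 2.01 over 2.36 to 2.57 in HF pigs and from 2.19 over 2.44 to 2.66 in LF pigs, with a difference of -0.08 ± 0.04 (BH adjusted p = 0.119). NFE2L1, a related factor, ran from 1.12 over 1.55 to 1.90 and from 1.04 over 1.63 to 1.95, with a difference of -0.10 ± 0.06 (BH adjusted p = 0.217). The small partner MAFG was the 1 regulator called lower. It ran from 2.41 over 3.06 to 3.64 in HF pigs and from 2.79 over 3.30 to 3.78 in LF pigs, with 18 of 24 HF pigs below the LF mean and a difference of -0.25 ± 0.08 (BH adjusted p = 0.0162).

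Of the inducible enzymes, NQO1, a quinone reductase widely used as a readout of NRF2, ran from -0.66 over a median of 0.42 to 1.56 in HF pigs. In LF pigs it ran from 0.02 over 0.98 to 1.76. The spread within a diet was wide, and 21 of 24 HF pigs were under the LF mean. The difference was -0.48 ± 0.15 (BH adjusted p = 0.0121), its 3 probes were all called, and the probe printed above gave -0.50. HMOX1, which breaks down heme, ran from 2.38 over 2.96 to 3.64 in HF pigs and from 2.31 over 3.02 to 3.72 in LF pigs. HMOX1 had no call, with a difference of 0.04 ± 0.10 and an interval from -0.16 to 0.24. Within each pig, NQO1 minus HMOX1 was -2.58 ± 0.66 (SD) in HF pigs and -2.06 ± 0.55 in LF pigs.

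**Figure D2:**
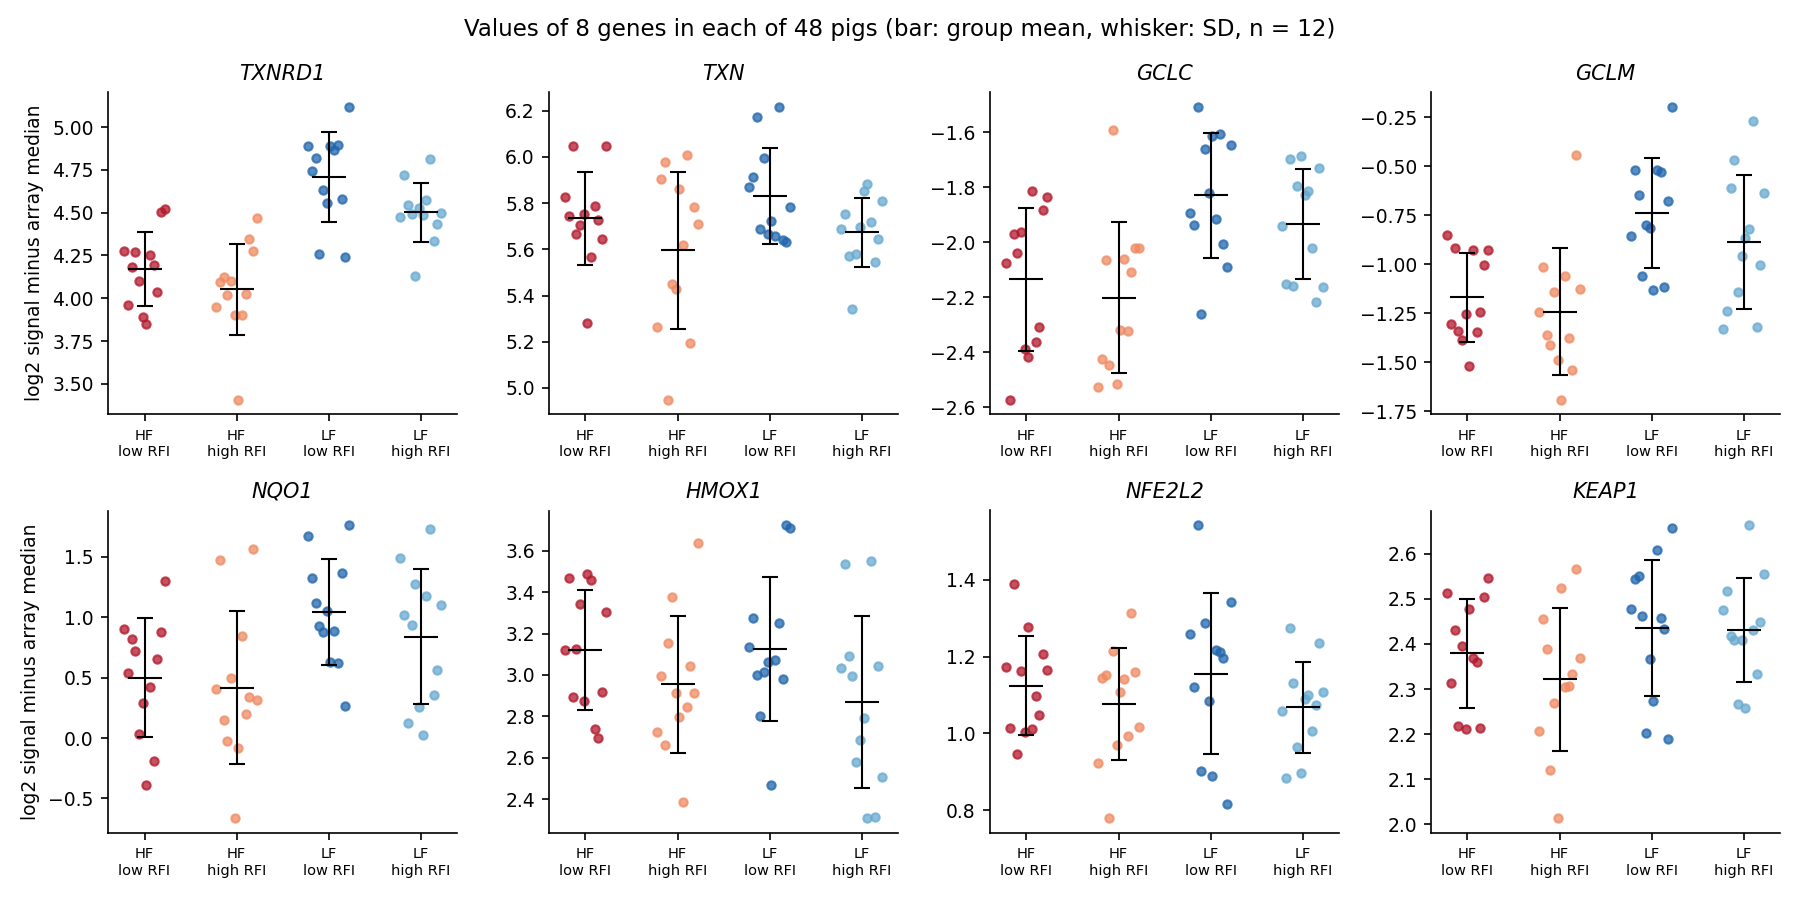
Log2 signal minus the array median in each of the 48 pigs for TXNRD1, TXN, GCLC, GCLM, NQO1, HMOX1, NFE2L2 and KEAP1, by diet and line. Points are pigs, bars the mean of 12 pigs and whiskers the SD. TXNRD1 is lower in HF pigs of both lines, while NFE2L2 stays between 0.78 and 1.54 in all 4 groups.

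Of 6 glutathione peroxidases, 4 were called lower. GPX1 is the cytosolic enzyme, GPX2 the epithelial one, GPX3 the secreted one found in plasma, and GPX4 the enzyme that reduces lipid hydroperoxides in membranes. GPX4 ran from 6.73 over a median of 7.14 to 7.55 in HF pigs and from 6.82 over 7.47 to 7.78 in LF pigs. Although the ranges nearly coincided, 20 of 24 HF pigs were below the LF mean, and the difference was -0.28 ± 0.07 (BH adjusted p = 0.00191). All 5 probes of GPX4, of which 1 repeats the sequence of another, were called, and the probe printed above gave -0.28. GPX1 differed by -0.28 ± 0.08 and its 6 probes by -0.42 to -0.28, all called. GPX2 differed by -0.39 ± 0.14, and its 2 probes of opposite strand gave -0.39 and -0.42, both called. The chosen probe runs opposite to the one filed on the pig transcript, which gave -0.42, so whether the chosen probe reads GPX2 is uncertain. The chosen GPX2 probe also rose and fell from pig to pig with the much brighter GPX1. In HF low RFI replicates 5 and 12, GPX1 was at 6.59 and 7.77 and GPX2 at -0.84 and 0.93. Whether the GPX2 signal is separate from that of GPX1 was not tested. GPX3 is taken up with the lines below. GPX6, another secreted form, had a difference of -0.07, and GPX7, which resides in the endoplasmic reticulum, one of 0.10, and neither was called. The kept GPX6 probe, at a level of 2.19, is filed under an accession that the pig reference table did not hold. The GPX6 probes filed on the pig transcript, at levels of -1.07 and -1.85, were not kept, so whether GPX6 was read is uncertain.

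Of 6 peroxiredoxins, 4 were called lower. PRDX3, the mitochondrial peroxiredoxin, ran from 5.32 over a median of 5.94 to 6.50 in HF pigs and from 5.70 over 6.32 to 6.70 in LF pigs. The difference was -0.32 ± 0.08 (BH adjusted p = 0.00274), with 21 of 24 HF pigs below the LF mean. PRDX3 had the most probes of any member, and all 15 were called within -0.34 to -0.29, with -0.31 for the probe printed above. PRDX6, the 1-cysteine enzyme that also acts on phospholipids, differed by -0.28 ± 0.06, and its 9 probes by -0.29 to -0.25, all called. PRDX1 and PRDX5 differed by -0.23 ± 0.07 and -0.22 ± 0.08. The cytosolic PRDX2 had a difference of -0.15 with a raw p of 0.0184 and was not called. PRDX4, the peroxiredoxin of the secretory pathway, lay at 0.06 with an interval from -0.07 to 0.19, and its 5 probes between 0.01 and 0.06. Like GPX7, it was 1 of the 4 members above 0, with GSS and HMOX1 as the others. Within each pig, PRDX3 minus PRDX4 was 2.40 ± 0.44 (SD) in HF pigs and 2.78 ± 0.36 in LF pigs.

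Of the superoxide dismutases and catalase, SOD3 alone was called lower. SOD3 is the extracellular enzyme, bound to the matrix, and ran from -3.46 over a median of -2.76 to -1.97 in HF pigs and from -2.95 over -2.37 to -1.50 in LF pigs. The difference was -0.42 ± 0.11 (BH adjusted p = 0.00261), with 22 of 24 HF pigs below the LF mean. SOD3 had 1 probe, well above background on 47 of 48 arrays and filed under an accession that the pig reference table did not hold. Cytosolic SOD1 differed by -0.13 ± 0.06 and mitochondrial SOD2 by -0.06 ± 0.07, without a call. Catalase, CAT, which removes hydrogen peroxide in peroxisomes, differed by -0.13 ± 0.05 (BH adjusted p = 0.0595, raw p = 0.0193), and its 9 probes lay between -0.14 and -0.12, none of them called.

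Of 6 thioredoxin-like genes 4 were called lower, of which TXNL4A and TXNL4B are known for their place in the spliceosome rather than in oxidant defence. TXNL4B ran from -0.61 over a median of 0.18 to 1.15 in HF pigs and from 0.05 over 0.95 to 1.78 in LF pigs. Its difference of -0.55 ± 0.14 (BH adjusted p = 0.00214) was the farthest from 0 among the 42 members, and 20 of 24 HF pigs were below the LF mean. TXNL4A had a smaller difference, -0.21 ± 0.04, but a tighter spread, with 23 of 24 HF pigs below the LF mean, and all 3 probes called. TXNDC17, a cytosolic thioredoxin-related protein, differed by -0.20 ± 0.05, and TXNDC12, a thioredoxin-fold protein of the endoplasmic reticulum, by -0.15 ± 0.05. The calls of TXNDC12 and TXNL1 depended on the probe. The second probe of TXNDC12 gave -0.03 without a call, and the second probe of TXNL1 gave -0.27 with one, against -0.11 for the brightest. TXNDC15 lay at -0.06 without a call.

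Of 6 glutathione S-transferases that were tested, which conjugate glutathione to reactive compounds, GSTO1 alone was called lower. It ran from 4.48 over a median of 4.79 to 5.07 in HF pigs and from 4.76 over 5.09 to 5.34 in LF pigs. The difference was -0.28 ± 0.05 (BH adjusted p = 0.000101), and 22 of 24 HF pigs were under the LF mean. GSTM3, GSTA4, GSTZ1, GSTP1 and GSTT1 lay between -0.23 and -0.06 without a call. GSTK1, which the study reported as higher on the HF diet in perirenal and subcutaneous fat, was not among the gene names found and was not tested here.

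GSTA1 and GSTA2, alpha class transferases known from liver, were not among the kept probes, and were well above background in 21 of 48 pigs each. Their probes shared no more than 6 bases in a row and are printed because their signals nearly coincided.
GSTA1: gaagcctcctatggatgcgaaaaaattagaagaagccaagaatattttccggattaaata
GSTA2: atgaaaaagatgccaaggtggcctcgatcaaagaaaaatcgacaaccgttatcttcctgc
In scanner units, the GSTA1 signal ran from 34 over a median of 73 to 528 in HF low RFI pigs and from 33 over 44.8 to 62 in HF high RFI pigs. In LF pigs it ran from 32 over 72 to 1886 in the low RFI line and from 32 over 53.5 to 5432 in the high RFI line. Each group but the HF high RFI one held 6 or 7 pigs well above background, while 11 of 12 HF high RFI pigs were not well above background. GSTA2 gave nearly the same value in every pig, with a ratio of at most 1.41 between the genes on 1 array, and both were well above background in the same 20 pigs. The transcripts of these paralogs may share sequence outside the probes, so that the genes are not told apart with certainty. With all probes fitted, the diet differences were -1.21 for GSTA1 and -1.20 for GSTA2 (BH adjusted p = 0.0936 and 0.0854), without a call. In the pig with the highest GSTA1 signal, the adrenal enzymes CYP17A1 and CYP21A2 had signals of 49.5 and 63 units, against medians of 46 and 69 units over all pigs. Both were dim in every pig, at 39 to 70 and 52 to 111 units, and so say little here. STAR, another adrenal gene, had 266.5 units in that pig, against a median of 510 and a range from 115 to 2293.5. The source of the GSTA1 signal was not tested. GPX5 was well above background in 1 pig, TXNDC8 in 3 and TXNDC11 in 27, and none of them was called when all probes were fitted.

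**Figure D3:**
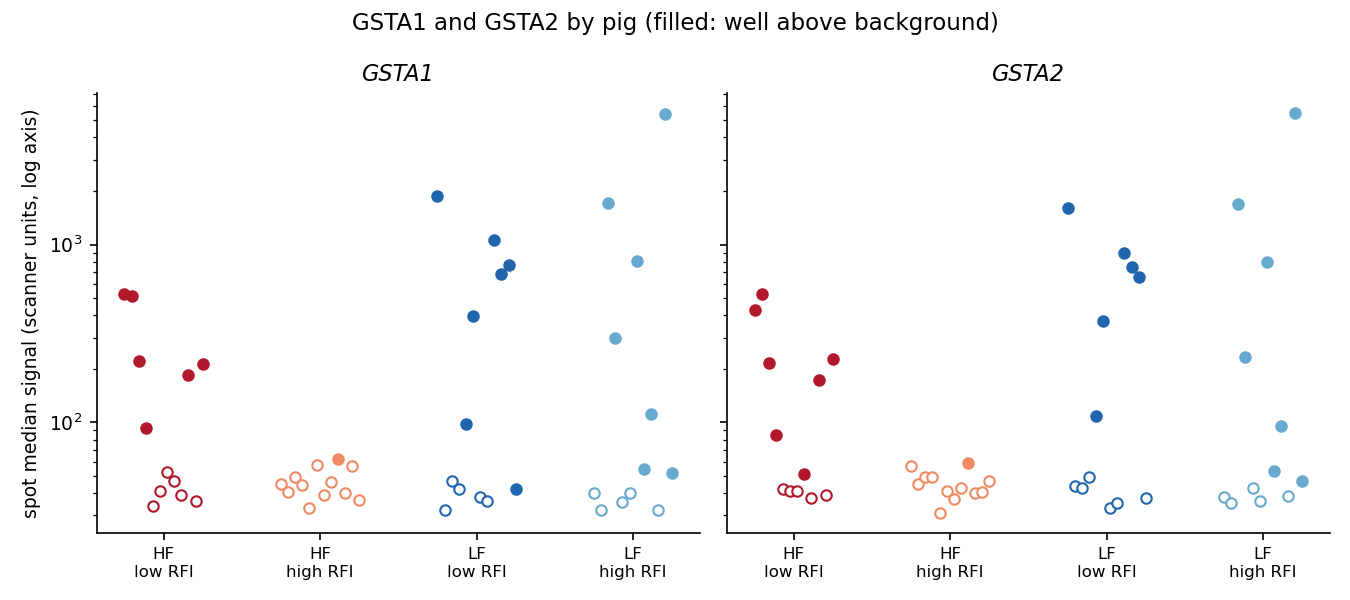
Spot signal of the GSTA1 and GSTA2 probes in scanner units on a log axis, by diet and line, with 1 point a pig. Filled points were well above background. The signal reaches 5432 units in 1 LF high RFI pig, while HF high RFI pigs stay between 33 and 62 units for GSTA1.

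The diet difference was then read in each line, which share no pigs. In low RFI pigs, 10 members were called and all were lower, where 9.8% of all probes were called lower, 4.16% higher and 14% in either direction. In high RFI pigs, 12 members were called and all were lower, against 9.59% of all probes called lower, 5.39% higher and 15% in either direction. Of these genes 8 were called in both lines: TXNRD1, GCLC, GCLM, GPX4, PRDX6, SOD3, GSTO1 and TXNL4A. PRDX3 and TXNDC12 were called in low RFI pigs, and CAT, PRDX5, TXNDC17 and TXNL4B in high RFI pigs. All 10 genes called in low RFI pigs were below 0 in high RFI pigs, and all 12 called in high RFI pigs were below 0 in low RFI pigs. Called or not, 39 of the 42 members were below 0 in low and 36 in high RFI pigs, so these counts add little. Across the 42 genes, which are not independent of each other, the differences in the lines had a Pearson r of 0.77. TXNRD1 differed by -0.54 in low and by -0.45 in high RFI pigs (BH adjusted p = 0.000418 and 0.00147), and GSTO1 by -0.28 in both.

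A difference between the lines in the response to diet was tested by the interaction, which was called for 0 of 42 members and 0% of all probes, with 108 of all probes at a raw p below 0.01. The smallest raw p among members was 0.0855, for GSTT1. GSTT1 ran from -1.74 over a median of -1.39 to -0.67 in HF and from -1.92 over -1.02 to -0.21 in LF low RFI pigs, a difference of -0.35, while its difference in high RFI pigs was 0.05. For TXNL4B, with -0.38 in low and -0.72 in high RFI pigs, the difference between the lines was 0.34 with a 95% interval from -0.22 to 0.89. For PRDX5, with -0.11 and -0.34, it was 0.23 with an interval from -0.09 to 0.56. Intervals of this width do not show that the lines responded alike.

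**Figure D4:**
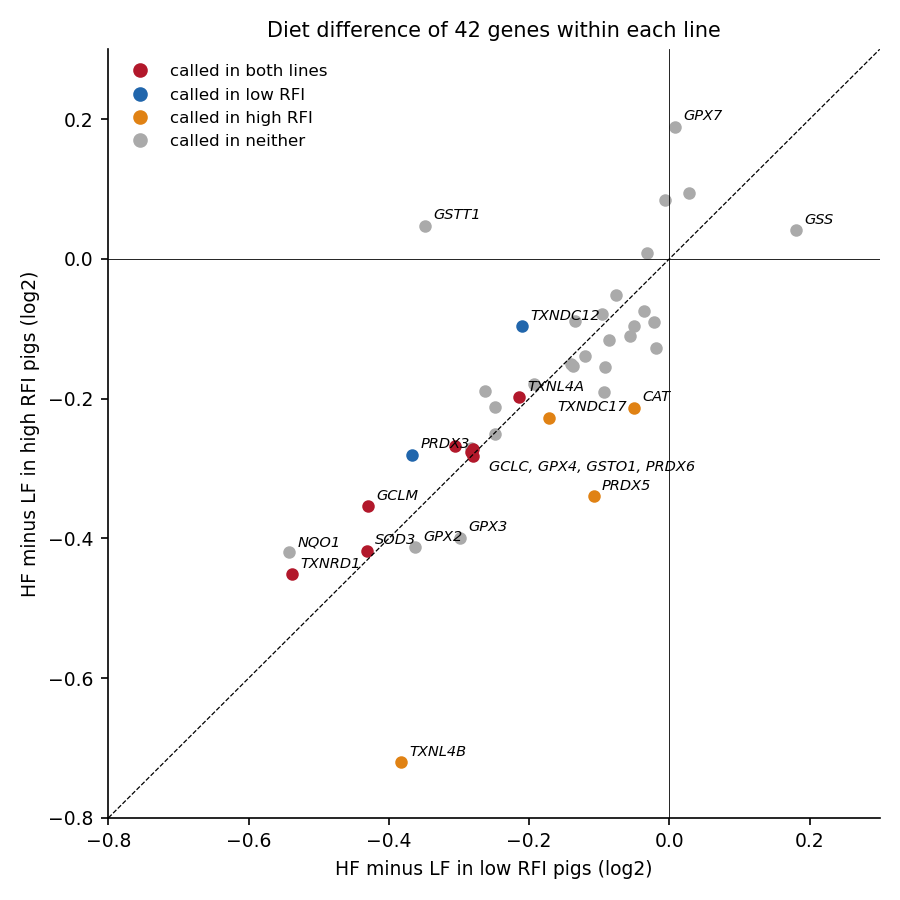
HF minus LF difference in log2 signal of the 42 genes, in low RFI pigs on the horizontal and in high RFI pigs on the vertical axis, 12 pigs a group. The dashed line marks equal differences. The 8 genes called in both lines lie near it, while TXNL4B, PRDX5 and GSTT1 lie farther off.

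Between the lines, 2 members were called, in opposite directions. Of all probes 3.61% were called, 1.81% lower and 1.81% higher in low RFI pigs. GPX3, the plasma glutathione peroxidase that adipose tissue also secretes, was lower in low RFI pigs. Its signal ran from 5.40 over a median of 6.27 to 6.73 in HF low RFI pigs and from 6.48 over 6.69 to 7.49 in HF high RFI pigs. On the LF diet, it ran from 5.86 over 6.40 to 7.43 in low RFI pigs and from 6.65 over 7.31 to 7.56 in high RFI pigs. The lines overlapped on both diets, yet 23 of 24 low RFI pigs lay below the high RFI mean. The line difference, low minus high RFI, was -0.71 ± 0.11 (BH adjusted p = 2.02e-05), a 1.64-fold lower signal. All 5 probes named GPX3 were called, from -0.83 to -0.71, and the probe printed above gave -0.74. Of these, 1 probe at -0.83 is filed under an accession that the reference table gives to CAPNS1, and the other 4 ranged from -0.82 to -0.71.

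The line difference of GPX3 was called on each diet, -0.66 on HF and -0.76 on LF (BH adjusted p = 0.0168 and 0.00735). On HF 1.08% of all probes were called for line, 0.572% lower and 0.511% higher, and on LF 0.477%, of which 0.189% lower and 0.288% higher. It was below 0 on all 6 slides, from -1.14 to -0.45. GPX3 was also called lower with diet, by -0.35 ± 0.11 (BH adjusted p = 0.0109), so that its lowest mean, 6.16 ± 0.44 (SD, n = 12), was in HF low RFI pigs and its highest, 7.22 ± 0.32, in LF high RFI pigs. The interaction of diet and line for GPX3 was 0.10 with a 95% interval from -0.33 to 0.53. None of the other glutathione peroxidases was called for line, with differences from -0.05 for GPX7 to 0.28 for GPX2. None of the 47 tested cell type markers was called for line, where 3.61% of all probes were, so this count says little about cell types.

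SOD2, the manganese enzyme of mitochondria, was higher in low RFI pigs. It ran from 4.19 over a median of 4.66 to 5.26 in HF low RFI pigs and from 4.13 over 4.27 to 4.64 in HF high RFI pigs. On the LF diet, it ran from 4.36 over 4.71 to 5.08 in low and from 4.15 over 4.42 to 4.86 in high RFI pigs. The lines overlapped, with 21 of 24 low RFI pigs above the high RFI mean. The line difference was 0.31 ± 0.07 (BH adjusted p = 0.00293), a 1.24-fold higher signal, and it lay above 0 on all 6 slides, from 0.12 to 0.48. Within a diet it was 0.33 and 0.29 and was not called (BH adjusted p = 0.0833 and 0.235). On HF it was called with slide, scan day or replicate number as a block (BH adjusted p = 0.0602, 0.0693 and 0.0294). Of the 8 probes of SOD2, 2 of which have the same sequence, 5 were called higher in low RFI pigs, and the 8 differences ranged from 0.13 to 0.62.

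The probes of SOD1 gave unequal line differences. The brightest probe gave 0.09 and another probe of the same transcript 0.14, without a call. The other 3, filed under another transcript, gave 0.26 to 0.28, and 2 of them were called (BH adjusted p = 0.0583 and 0.0775). The count of 1 member higher in low RFI pigs thus holds SOD2 and not SOD1 because 1 probe stands for each gene. No other member had a probe called for line.

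**Figure D5:**
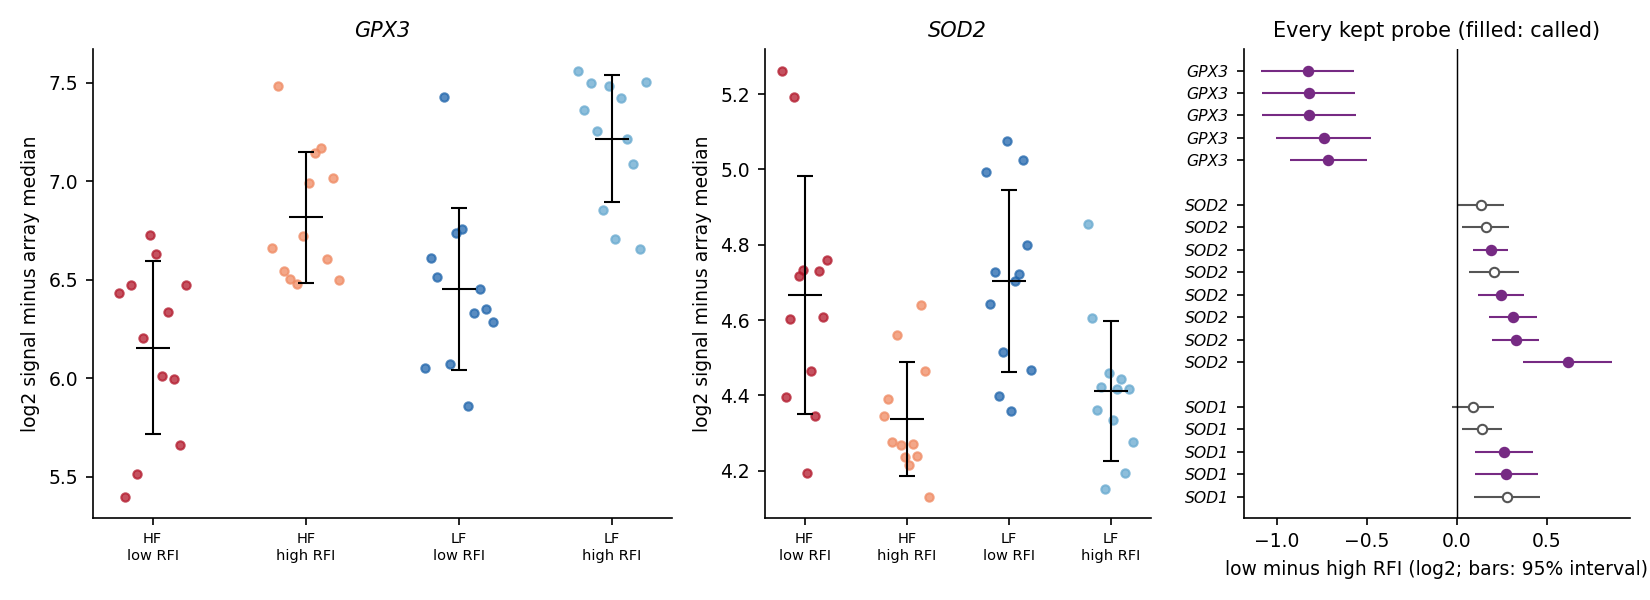
Log2 signal of GPX3 and SOD2 in each pig by diet and line, with the mean and SD of 12 pigs (left and middle), and the difference between low and high RFI pigs for every kept probe of GPX3, SOD2 and SOD1 with 95% intervals (right). All 5 GPX3 probes lie between -0.83 and -0.71 and all 8 SOD2 probes between 0.13 and 0.62.

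Genes that work with these enzymes were taken from lists of 64 genes, of which 56 were tested. For diet, 23 were called lower and 1 higher in HF pigs, 41.1% and 1.79%, with a median difference of -0.14. Over all probes, 15.5% were called lower and 8.94% higher. Among the probes brighter than the median member, these shares were 28.8% and 5.34%. Of 11 genes that supply NADPH, 6 were called lower, among them ME1, malic enzyme, by -1.25 ± 0.20, and the pentose phosphate pathway enzymes TALDO1 by -0.38, PGD by -0.36 and TKT by -0.33. The difference of ME1 was thus beyond that of any antioxidant member. Of 7 genes of cysteine supply, 2 were called lower, CTH by -0.39, which makes cysteine from cystathionine, and AHCY by -0.35.

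Of 12 genes of glutathione turnover and the glutaredoxins, 4 were called lower, GLO1 and HAGH of methylglyoxal removal by -0.33 and -0.24, and GLRX2 and GLRX3 by -0.27 and -0.15. Of 2 tested partners and regulators of NRF2, GSK3B was called lower, by -0.38. Of 24 other oxidant-defence genes, 10 were called lower, with EPHX1, an epoxide hydrolase, at -0.62, the biliverdin reductases BLVRB and BLVRA at -0.57 and -0.45, AKR1B1, aldose reductase, at -0.53, and the selenoprotein SEPW1 at -0.35. UCP2, a mitochondrial carrier, was the 1 gene called higher, at 0.45 ± 0.14. For line, PON3, MT1A and EPHX1 were called higher in low RFI pigs, by 1.29 ± 0.23, 1.67 ± 0.48 and 0.54 ± 0.14, and GLRX5 was called lower, by -0.39 ± 0.12. These were 7.14% of the tested partner genes, where 3.61% of all probes were called for line.

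The 19 diet calls were also looked at by hybridization. Each of 6 slides held 2 pigs of each group, and the slides were scanned on 2 days. All 19 differences were below 0 on both scan days, with 24 arrays each, and on at least 5 of the 6 slides, of which 12 on all 6. The genes were called from these same arrays, so agreement in sign was largely set by the calls and is no separate check. For TXNRD1, the slides ranged from -0.85 to -0.13 and the scan days gave -0.49 and -0.50. For GPX2, the differences were -0.11 and -0.66 on the scan days, and from -1.04 to 0.24 on the slides.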

How the data were processed

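One array per pig was hybridised with Cy3-labelled RNA. Intensity values of each spot, deposited as scanner files, came from Feature Extraction per the file headers, with background-subtracted signals and quality flags beside them. From these, the authors derived log2 values in R 2.10.0: spots were filtered on intensity, uniformity, saturation and outliers, and each array was centred on its median. Row labels of that table did not match its values, so rows were named by matching values to spots, within 1e-06. Kept probes well above background numbered 35787 to 38118 per array, and precision is limited by the number of arrays. Diet, line and their interaction were fitted with limma 3.58.1 in R 4.3.3 to all 48 arrays and 38142 probes, with BH adjustment, and tested on simulated data. Probes of each gene were ranked by mean log2 median signal. Members with a call and the genes GCLC, GCLM, GSS, GSR, NFE2L1, NFE2L2, KEAP1, MAFG, NQO1 and HMOX1 were described whatever their result, other members by range, and at most 5 called genes for each list of partner genes with their values. Members and lists were chosen with earlier results of these data known. Gene names are those of the array, and 80 of the 81 member probes with an accession in the reference table carried the same symbol. Normalization, background, filter, slide, scan day and thresholds were varied. Some results are not reported here.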

Additional observations from a re-analysis of the deposited data

How the results depend on the processing

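The 19 genes called for diet stayed below 0 under every alternative run, and no value with a call reversed. With another model, a block, a stricter probe filter or another threshold, the diet estimate stayed the same by design, so its sign could not change. Nor could a called gene rise above 0 under spike-in centring. Background-subtracted signal with 75th percentile centring gave 17 members lower and 1 higher, GSS, and spike-in centring gave 5 lower and 1 higher. Spike-in centring also left 2 members changed by diet within low and 3 within high RFI pigs, 14 partner genes lower and 4 higher, and 2 members changed by line on HF. Normexp with quantile normalization gave 12 members lower, 6 changed within high RFI pigs, 2 lower in low RFI pigs, 2 changed by line on HF and 2 partner genes higher. Quantile normalization alone gave 13 members lower, 2 lower in low RFI pigs, 2 changed by line on HF and 2 partner genes higher. In both of these the second gene lower in low RFI pigs was PRDX1. A fold above 1.5 left 0 members lower with diet, 0 higher in low RFI pigs, 0 changed within low and 1 within high RFI pigs, and 2 partner genes lower and 0 higher. With no filter on dim probes, 20 members were lower and 2 partner genes higher. With the mean of all probes of a gene, scan day as a block or slide as a block, 2 members were changed by line on HF, and 20, 20 and 22 were lower with diet. Where probes were fitted singly, the second member changed by line on HF was SOD2. The cause of these shifts was not tested. The share of all called probes that were lower was 63.5% in the main scaling, 49.5% with 75th percentile centring, 49.9% and 48.3% with quantile normalization without and with normexp, and 15.4% with spike-in centring. No source ties pigs of the same replicate number to each other, but each of the 12 numbers lay on 1 slide in all groups. By correlation, 38 of 72 same-numbered pairs had a correlation above 0.1, with a median of 0.12, and 16 of 48 pigs correlated best with their own number. These values do not show same-numbered arrays to be unrelated, and the part of the shared slide was not tested. The numbers were not taken as pairs because no source names them as such. With the replicate block, 23 members were lower with diet and 2 changed by line on HF. Leaving out the array with the fewest probes well above background, replicate 2 of the HF high RFI pigs (added once the data had been seen), gave 19 lower and 0 higher. Dim probes limit what can be read of GPX5, GSTA1, GSTA2, TXNDC8 and TXNDC11.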
